A study of Mus musculus with 9 samples.

Results

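The 9 genes described here encode chromobox readers, PCGF subunits and RING ligases of Polycomb repressive complex 1 (PRC1): Cbx2, Cbx6, Cbx7, Cbx8, Bmi1, Pcgf2, Pcgf6, Ring1 and Rnf2. They were taken by symbol from a table of 46078 genes, each symbol matched 1 row, and 9 of the 9 passed the filter on low counts. Their transcripts were measured by sequencing of RNA 3′ ends in mouse lymphoma cells driven by MYCN, a transcription factor of the MYC family, and in control T cells. The lymphoma group holds 6 libraries of T cell lymphoma cells from the thymus, labelled 34, 53, 56, 70, 72 and 86, and the CD4 group holds 3 libraries of CD4+ T cells from the spleen, labelled 1, 2 and 3. Both groups are of the C57BL/6J strain. The labels give no age, no treatment, no batch and no driver line for MYCN, and neither the independence of the lymphomas nor any pooling of animals is stated. Counts over all T cell receptor beta V genes were 9, 0 and 0 in lymphomas 53, 56 and 86, too few to name a leading gene. In lymphomas 34, 70 and 72 the most counted such gene was the same, Trbv12-1 (66, 45 and 47 counts). Whether these lymphomas share a clone was not tested. With these 3 averaged into 1 library, the calls of Cbx2, Cbx6, Cbx7, Bmi1 and Pcgf6 described below held and that of Pcgf2 did not. The p-values measure the spread between these libraries.

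PRC1 represses genes by placing 1 ubiquitin on histone H2A, a reaction carried out by a RING ligase, RING1 or RNF2, paired with 1 PCGF subunit. In canonical PRC1 the PCGF subunit is PCGF2 or BMI1, and a CBX protein reads the methyl mark that PRC2, the complex of EZH2, places on histone H3. The variant complex built on PCGF6 holds the DNA-binding partners MGA, MAX and E2F6. In blood and lymphoid cells, BMI1 and CBX7 are known for repressing the tumour suppressor locus Cdkn2a and for sustaining self-renewal.

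The title of the series links MYCN with EZH2, and MYC proteins bind with MAX to the E-box CACGTG. The promoter windows of the genes are therefore shown first. RefSeq promoter windows, which run from 250 bases before to 50 bases after a gene's start (GRCm38.p6), were matched by symbol for 8 of the 9 genes, not for Cbx2. RefSeq and the gene annotation used for positions can place a start differently, and for Cbx6, Cbx7, Cbx8 and Pcgf2 the RefSeq start lies inside the annotated gene, with the whole window inside it for Cbx6, Cbx7 and Pcgf2. CACGTG, which reads the same on both strands, was present in 4 of these 8 windows. It was present in 7.15% of the 32851 windows of all genes and in 9.64% of the windows of genes tested here. The 4 windows with the motif, and that of Cbx7 for comparison, are printed with CACGTG in capitals.
Bmi1, chr2:18676768-18677067, + strand: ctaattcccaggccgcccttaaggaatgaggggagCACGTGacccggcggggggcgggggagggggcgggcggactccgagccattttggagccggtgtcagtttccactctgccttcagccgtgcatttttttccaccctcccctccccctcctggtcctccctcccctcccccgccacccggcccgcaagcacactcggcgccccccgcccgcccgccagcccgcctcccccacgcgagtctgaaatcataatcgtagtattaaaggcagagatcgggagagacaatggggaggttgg
Pcgf2, chr11:97699599-97699898, - strand: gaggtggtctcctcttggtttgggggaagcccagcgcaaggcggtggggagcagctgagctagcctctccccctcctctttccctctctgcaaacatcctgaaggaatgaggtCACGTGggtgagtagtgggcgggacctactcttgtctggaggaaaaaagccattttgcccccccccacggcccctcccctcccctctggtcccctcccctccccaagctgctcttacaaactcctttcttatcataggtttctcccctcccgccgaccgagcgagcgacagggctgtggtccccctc
Cbx6, chr15:79834284-79834583, - strand: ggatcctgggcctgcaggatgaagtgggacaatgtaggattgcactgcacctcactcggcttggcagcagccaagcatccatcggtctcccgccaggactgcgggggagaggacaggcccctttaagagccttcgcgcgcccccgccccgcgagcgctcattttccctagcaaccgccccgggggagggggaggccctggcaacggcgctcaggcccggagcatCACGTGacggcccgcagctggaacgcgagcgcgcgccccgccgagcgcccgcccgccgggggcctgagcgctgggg
Cbx8, chr11:119040864-119041163, - strand: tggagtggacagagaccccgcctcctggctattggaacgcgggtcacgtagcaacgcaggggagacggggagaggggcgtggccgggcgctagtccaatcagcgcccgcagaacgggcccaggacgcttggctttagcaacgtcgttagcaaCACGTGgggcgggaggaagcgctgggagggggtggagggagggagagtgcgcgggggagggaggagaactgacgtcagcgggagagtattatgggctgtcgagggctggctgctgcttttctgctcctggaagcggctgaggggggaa
Cbx7, chr15:79932597-79932896, - strand: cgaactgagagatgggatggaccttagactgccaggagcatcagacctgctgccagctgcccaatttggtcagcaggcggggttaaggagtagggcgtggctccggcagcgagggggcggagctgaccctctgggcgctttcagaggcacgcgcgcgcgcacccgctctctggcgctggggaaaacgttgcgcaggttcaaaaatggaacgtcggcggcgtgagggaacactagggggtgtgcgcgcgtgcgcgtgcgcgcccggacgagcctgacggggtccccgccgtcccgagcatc
The motif began at base 36 of the window of Bmi1, 114 of Pcgf2, 153 of Cbx8 and 225 of Cbx6. Of the 4 genes, Bmi1, Cbx6 and Pcgf2 were higher in lymphoma and Cbx8 did not pass the test, as described below. Among all tested genes, CACGTG was in 11.3% of the windows of genes higher in lymphoma and in 8.25% of those of genes lower in lymphoma. Of 4 further motifs searched on both strands, CACGCG was in the windows of Bmi1, Cbx7 and Ring1 (9.27% of all windows and 16.6% of those of tested genes) and TTCCGG in that of Ring1 (14.9% and 26.6%). TTTCCCGC (1.07% and 1.90%) and TTCCCGCC (2.19% and 3.86%) were in 0 of the 8. Like CACGTG, each of these 4 motifs was more frequent in windows of genes higher than of genes lower in lymphoma. The shares were 20.9% and 12.7% for CACGCG, 31.0% and 19.7% for TTCCGG, 3.30% and 0.909% for TTTCCCGC, and 4.94% and 2.55% for TTCCCGCC. TTTCCCGC and TTCCCGCC share most of their letters and can overlap, and no CACGCG overlapped a CACGTG in these windows. These matches describe letters only, and binding was not measured.

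Reads counted in genes numbered 11170704 to 15769679 per lymphoma and 8099960 to 10808828 per CD4 library. Reads not counted in a gene made up 50.9 to 61.3% per lymphoma and 64.95 to 72.2% per CD4 library. Among them, reads in no annotated feature made up 16.6 to 22.5% of all reads per lymphoma and 30.4 to 33.3% per CD4 library. Reads aligned to several places made up 16.1 to 18.6% per lymphoma and 11.6 to 14.0% per CD4 library. The part of these differences in the changes described here was not tested. Lymphoma 53 stood apart over all genes: chi-square per degree of freedom was 132 to 154 in its pairs with the other lymphomas and 20.7 to 59.0 in the pairs among those. It also had the lowest Mki67 of the 6 (164.8 CPM, where the others had 455 to 503 CPM) and the highest Cd8a (29.4 CPM, where the others had at most 1.53 CPM). The CD4 libraries had 25.6 to 31.8 CPM of Cd8a. Of all tested genes, 46.6% differed between the groups by edgeR's quasi-likelihood test, with 24.7% higher and 21.9% lower in lymphoma, so a change in any single gene was common. The groups also differed in what else they held. T cell markers summed to 1938 to 3541 counts per 1000000 gene counts (CPM, with totals scaled by TMM) in lymphoma and 3578 to 3715 CPM in CD4. The pan-T gene Cd3e stood at 176 ± 23.5 CPM (SD, n = 6) and 157 ± 30.0 CPM (SD, n = 3), whereas Cd4 itself stood at 35.3 ± 29.2 CPM and 240 ± 35.5 CPM in the same order. B cell markers summed to 255 to 421 CPM in lymphoma and 2281 to 2847 CPM in CD4, with 11 of 11 lower in lymphoma and 0 of 11 at 0 in every library of a group. Plasmacytoid dendritic cell markers summed to 49.7 to 100.3 CPM in lymphoma and 545 to 573 CPM in CD4 (6 of 6 lower). Myeloid markers summed to 162 to 2272 CPM in lymphoma and 1064 to 1373 CPM in CD4 (6 of 11 lower, 0 higher). Proliferation markers summed to 3662 to 4996 CPM in lymphoma and 370 to 502 CPM in CD4, with 16 of 16 higher. Erythroid markers (14.2 to 889 CPM in lymphoma and 105 to 364 CPM in CD4) had 1 of 9 lower, and stromal and thymic epithelial markers (97.7 to 180 CPM and 221 to 240 CPM) had 2 higher and 2 lower of 7 tested, with 2 of 14 at 0 in all lymphomas and 5 of 14 at 0 in all CD4 libraries. The Y-linked gene Ddx3y had a mean of 149 CPM in lymphoma against 0.548 CPM in CD4. These means do not give the sex of each library. Sex was therefore not separated from group, and tissue of origin and group cannot be told apart.

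Among the 9 genes, Cbx2, Cbx6, Bmi1, Pcgf2 and Pcgf6 were higher in lymphoma, Cbx7 was lower, and Cbx8, Ring1 and Rnf2 did not pass the test. Thus 6 of 9 were called, 5 higher and 1 lower, beside 46.6% of all tested genes. The median log2 fold change was 1.05 over the 9 genes and 0.04 over the 15401 tested genes, and it moved to -0.06 over all genes with upper quartile scaling. The libraries of the groups did not overlap in CPM for 4 of the 9 in the higher direction and for 1 in the lower direction. Among all tested genes, 44.9% had no overlap, 22.6% in the higher and 22.3% in the lower direction. In these bulk samples, fewer cells that express a gene and less RNA per cell cannot be told apart.

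**Figure D1:**
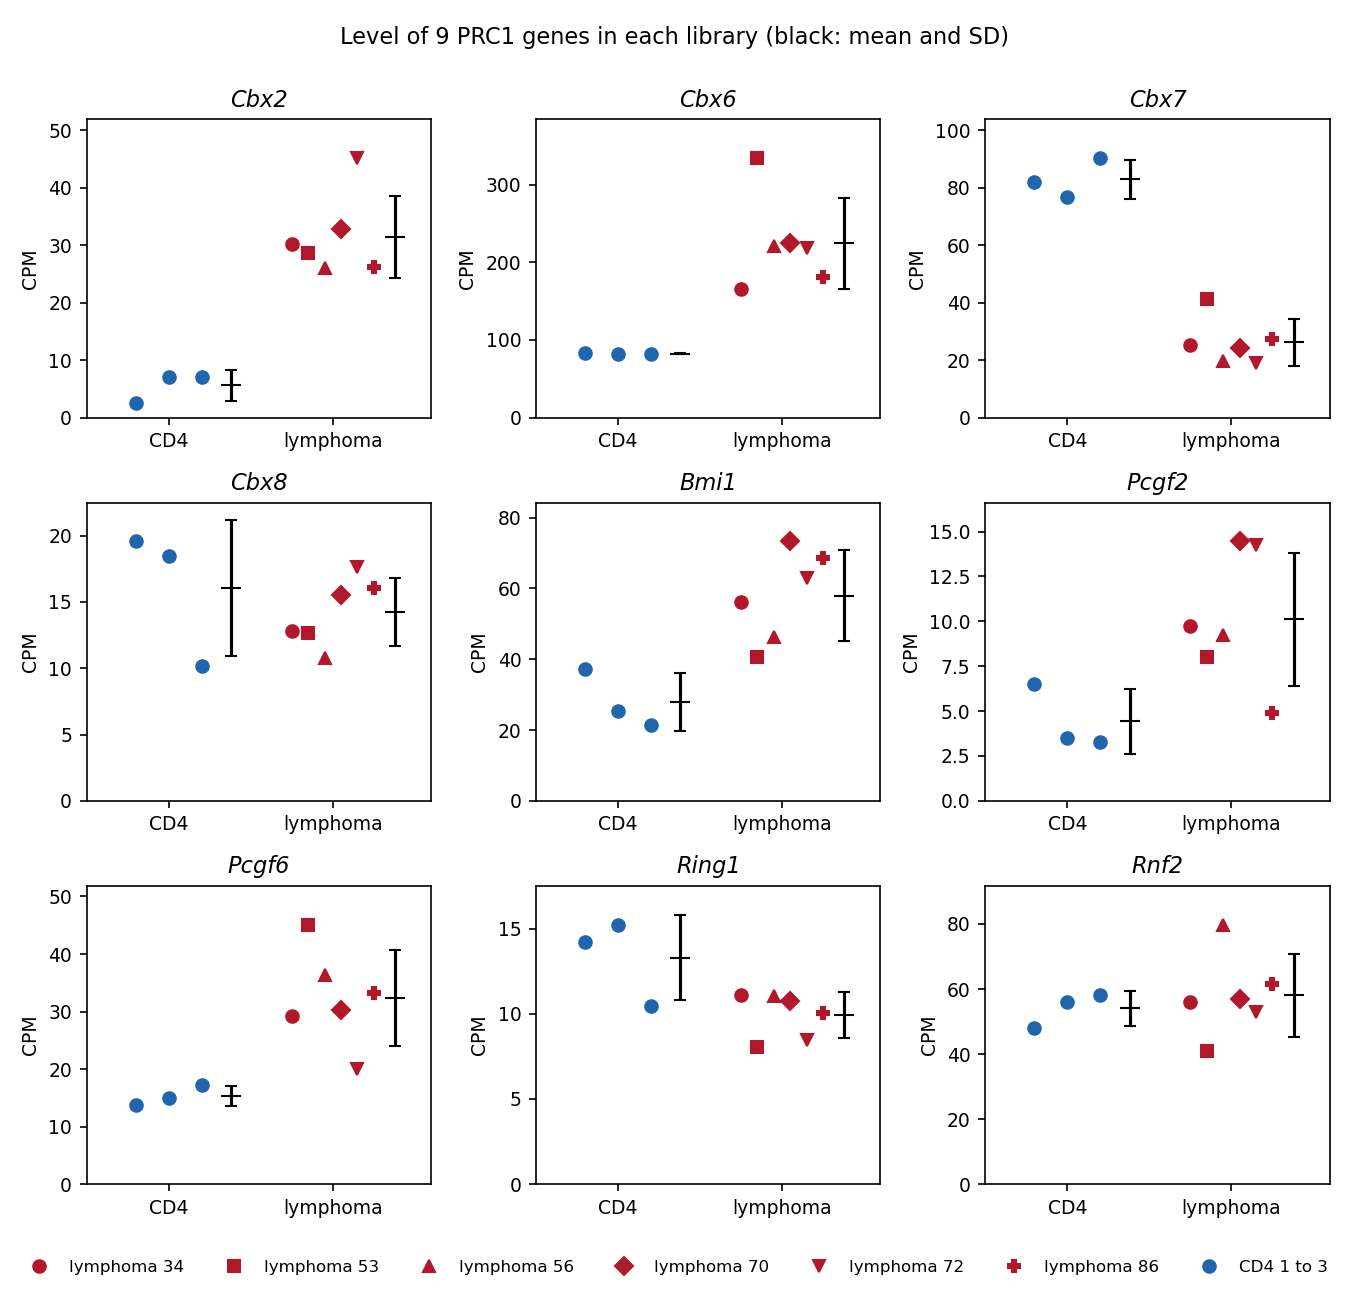
Level of each of the 9 genes in CPM (vertical axes, each from 0) in the CD4 (blue) and lymphoma (red, 1 symbol per lymphoma) libraries, with the group mean and SD in black. All 6 lymphomas lie above all 3 CD4 libraries for Cbx2, Cbx6, Bmi1 and Pcgf6 and below them for Cbx7, and the groups overlap for Cbx8, Pcgf2, Ring1 and Rnf2.

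The CBX readers did not move together. Cbx2 (ENSMUSG00000025577), a CBX protein that also compacts chromatin, lies on chromosome 11 at 119022962 to 119031270. Its level was 2.58, 7.08 and 7.16 CPM in CD4 1, 2 and 3, from 27 to 78 counts, and in lymphoma it ranged from 26.1 to 45.2 CPM with a median of 29.4 CPM. The lowest lymphoma was well above the highest CD4 library, and CD4 1 lay apart from the other CD4 libraries. The mean rose 5.63-fold, between 5.60 ± 2.62 CPM (SD, n = 3) in CD4 and 31.5 ± 7.15 CPM (SD, n = 6) in lymphoma, which is 2.49 on the log2 scale with an SE of 0.355 (edgeR adjusted p 0.000150). This was the largest rise among the 9 genes.

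Cbx6 (ENSMUSG00000089715, chromosome 15, 79823896 to 79834688) encodes another CBX reader. CD4 1, 2 and 3 had 83.7, 81.8 and 82.2 CPM, and the lymphomas ran from 165 to 334 CPM with a median of 219.9 CPM. The CD4 libraries were almost alike, and lymphoma 53 stood above the other lymphomas, whose highest value was 225 CPM. The log2 fold change was 1.44 (SE 0.220, edgeR adjusted p 0.000251), with means of 82.6 ± 0.977 CPM (SD, n = 3) in CD4 and 224 ± 58.9 CPM (SD, n = 6) in lymphoma. Without lymphoma 53 it was 1.29. Cbx6 shares 563 exonic bases (5.3% of its own) with Npcd on the same strand, and reads in shared bases could have been left out of either count.

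Cbx7 (ENSMUSG00000053411) was the 1 gene of the 9 that fell. It encodes a CBX reader known for repressing Cdkn2a, and it lies at 79915807 to 79971119 on chromosome 15, with the gene Apobec3 between it and Cbx6. It stood at 82.0, 76.7 and 90.3 CPM in CD4 1, 2 and 3, and at 18.9 to 41.4 CPM, median 24.8 CPM, in lymphoma. No lymphoma came near the CD4 range, and lymphoma 53 was again the highest. The level fell 3.17-fold, between 83.0 ± 6.85 CPM (SD, n = 3) in CD4 and 26.2 ± 8.15 CPM (SD, n = 6) in lymphoma, or -1.67 on the log2 scale with an SE of 0.228 (edgeR adjusted p 0.000115). B cell and plasmacytoid dendritic cell markers were lower in lymphoma in the same libraries, and their part in the fall of Cbx7 was not tested. Apobec3, which overlaps Cbx7 by 100 exonic bases on the opposite strand, changed by -0.04 (edgeR adjusted p 0.877).

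Cbx8 (ENSMUSG00000025578), a reader known as a partner of the leukaemia fusion factors AF9 and ENL, lies next to Cbx2 on chromosome 11 (119036305 to 119040969). Its level was 19.6, 18.5 and 10.2 CPM in CD4 1, 2 and 3 and ran from 10.8 to 17.6 CPM, median 14.1 CPM, in lymphoma. CD4 3 lay below every lymphoma and the other CD4 libraries above every lymphoma. The change of -0.17 on the log2 scale (SE 0.274, edgeR adjusted p 0.636) had an interval of 2 SE on either side from -0.72 to 0.37, and without CD4 1 the change was 0.01. Cbx2 and Cbx8, direct neighbours on the chromosome, therefore had a called rise and a change near 0.

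Expressed as shares of the summed counts of Cbx2, Cbx6, Cbx7 and Cbx8, the mixture of these 4 readers differed between the groups. The share of Cbx7 was 44.3% ± 3.003 (SD, n = 3) in CD4 and 8.87% ± 1.97 (SD, n = 6) in lymphoma. That of Cbx6 was 44.1% ± 0.698 in CD4 and 75.2% ± 3.94 in lymphoma, and that of Cbx2 was 2.996% ± 1.41 and 10.9% ± 2.82. Cbx8 held 8.61% ± 2.81 and 4.97% ± 1.26, and its groups overlapped. Counts of 3′ ends were not corrected for length or priming, so these shares compare groups and do not rank genes within a library.

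**Figure D2:**
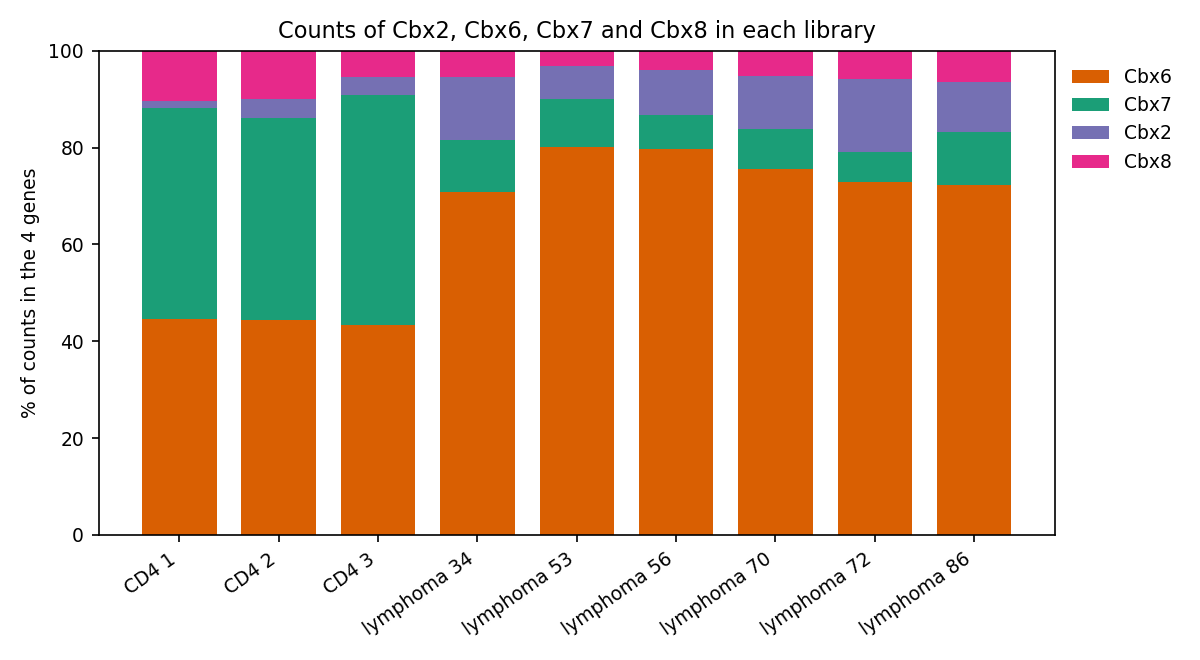
Share of the summed counts of Cbx2, Cbx6, Cbx7 and Cbx8 (vertical axis, percent, stacked) held by each gene in each of the 9 libraries. Cbx7 holds 41.7 to 47.6% in the CD4 libraries and 6.29 to 10.9% in the lymphomas, and Cbx6 holds 43.3 to 44.6% and 70.8 to 80.1%.

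Count ratios of paralogues within a library do not depend on how libraries are scaled, and 6 such ratios were compared with an exact permutation test, two-sided, over 84 ways to assign the libraries. The smallest p it can give is 0.0238. The log2 ratio of Cbx2 to Cbx7 was -4.97, -3.43 and -3.65 in CD4 1, 2 and 3 and -0.53 to 1.25 in lymphoma. The groups did not overlap, and the means differed by 4.31 log2 units (19.8-fold, exact permutation p = 0.0238, 0.0476 after Benjamini-Hochberg adjustment over the 6 ratios). Cbx6 to Cbx7 stood at -0.00 ± 0.12 (SD, n = 3) in CD4 and 3.11 ± 0.36 (SD, n = 6) in lymphoma, an 8.67-fold difference with the same exact and adjusted p. Cbx8 to Cbx7 stood at -2.42 ± 0.63 and -0.85 ± 0.52, a difference of 1.57 with the same exact and adjusted p. Each of the other 3 CBX genes thus stood higher relative to Cbx7 in all 6 lymphomas than in any CD4 library. The 3 ratios share Cbx7 and are not separate support. Cbx2, Cbx6 and Cbx7 had no overlap between the groups in CPM, so the separation of Cbx2 to Cbx7 and Cbx6 to Cbx7 followed from those levels. The adjusted p rests on all 3 ratios reaching the smallest possible p.

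**Figure D3:**
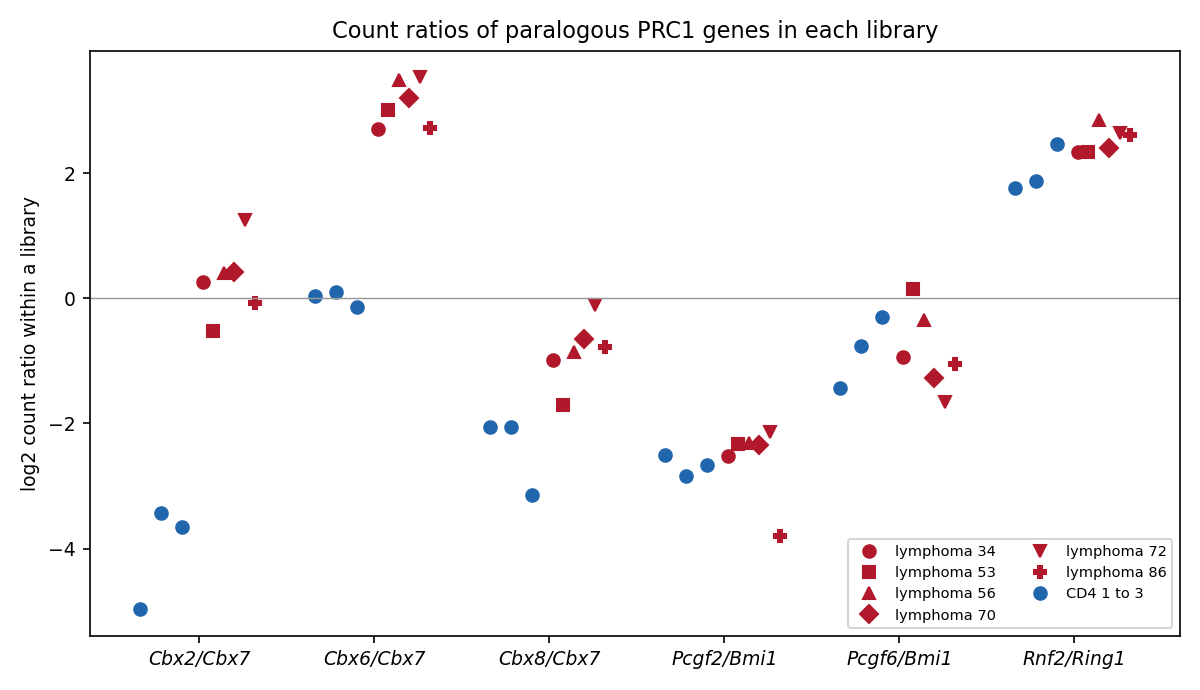
Log2 count ratio of paralogous genes (vertical axis) in each CD4 (blue) and lymphoma (red, 1 symbol per lymphoma) library for 6 gene pairs (horizontal axis). The groups lie apart for the 3 ratios over Cbx7 and overlap for Pcgf2/Bmi1, Pcgf6/Bmi1 and Rnf2/Ring1.

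Of the PCGF genes, Bmi1, Pcgf2 and Pcgf6 had log2 fold changes of 1.05 to 1.19, and the call of Pcgf2 was the least stable. Bmi1 (ENSMUSG00000026739, chromosome 2, 18677018 to 18686629) encodes the canonical PRC1 subunit known to cooperate with MYC in mouse lymphoma. It stood at 37.2, 25.3 and 21.3 CPM in CD4 1, 2 and 3, and in lymphoma it ranged from 40.6 to 73.3 CPM with a median of 59.6 CPM. The lowest lymphoma, 53, was close to the highest CD4 library, and the groups did not overlap. The log2 fold change was 1.05 (SE 0.247, edgeR adjusted p 0.00433). CD4 averaged 27.9 ± 8.28 CPM (SD, n = 3) and lymphoma 58.0 ± 12.8 CPM (SD, n = 6).

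Pcgf2 (ENSMUSG00000018537), which encodes the BMI1 paralogue MEL18 and lies on chromosome 11 at 97688823 to 97700497, had 29 to 236 counts per library. It stood at 6.49, 3.48 and 3.30 CPM in CD4 1, 2 and 3, and in lymphoma it ranged from 4.91 to 14.5 CPM with a median of 9.49 CPM. Lymphoma 86 lay inside the CD4 range, and the other 5 lymphomas lay above it. Its log2 fold change of 1.19 (SE 0.420) passed at an edgeR adjusted p of 0.0355, but the call was lost in 10 of 20 alternatives, over which the adjusted p ranged from 0.0150 to 0.123. Among these were leaving out lymphoma 70 (0.0651), lymphoma 72 (0.0712), CD4 2 (0.121) or CD4 3 (0.123).

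Pcgf6 (ENSMUSG00000025050, chromosome 19, 47033617 to 47050906) encodes the subunit of the variant complex that holds MGA and MAX. CD4 1, 2 and 3 had 13.7, 14.9 and 17.3 CPM, and the lymphomas ran from 19.96 CPM in lymphoma 72 to 45.1 CPM in lymphoma 53, with a median of 31.7 CPM. The lymphomas lay above CD4 without overlap. The log2 fold change was 1.08 (SE 0.256, edgeR adjusted p 0.00453). CD4 averaged 15.3 ± 1.79 CPM (SD, n = 3) and lymphoma 32.4 ± 8.34 CPM (SD, n = 6). Proliferation markers were higher in the same lymphomas, and their part in the rises of the PCGF genes and of Cbx2 and Cbx6 was not tested.

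For Pcgf2 and Pcgf6 against Bmi1, a difference in ratio was not shown. The log2 ratio of Pcgf2 to Bmi1 was -2.67 ± 0.17 (SD, n = 3) in CD4 and -2.57 ± 0.61 (SD, n = 6) in lymphoma (exact permutation p = 0.714, 0.857 adjusted over the 6 ratios). That of Pcgf6 to Bmi1 was -0.83 ± 0.57 and -0.85 ± 0.65 (exact permutation p = 0.929, also after adjustment). The lymphomas spread widely in the second ratio, from -1.66 in lymphoma 72 to 0.15 in lymphoma 53. As shares of the summed counts of 6 PCGF genes, which were not tested, Bmi1 held 25.6% ± 7.69 (SD, n = 3) in CD4 and 35.2% ± 5.32 (SD, n = 6) in lymphoma, and Pcgf6 held 13.97% ± 1.37 and 20.2% ± 6.65. Both overlapped between the groups, as did Pcgf2. Pcgf3, which belongs to variant complexes, held 34.3 to 43.4% in CD4 and 23.4 to 31.6% in lymphoma, with no overlap. Its own level did overlap, with means of 43.96 CPM in CD4 and 45.04 CPM in lymphoma. Pcgf3 did not pass the test (edgeR adjusted p 0.892), so its lower share does not show a fall in its level.

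The genes of the RING ligases, RING1 and RNF2, of which each PRC1 holds 1, did not pass the test. Ring1 (ENSMUSG00000024325) lies on chromosome 17 at 34020792 to 34024680, beside the class I gene H2-K1. Its level was 14.2, 15.2 and 10.5 CPM in CD4 1, 2 and 3 and 8.04 to 11.1 CPM, median 10.4 CPM, in lymphoma. CD4 3 lay among the lymphomas. The log2 fold change was -0.42 (SE 0.254, edgeR adjusted p 0.195), with an interval of 2 SE on either side from -0.93 to 0.08. With trends of GC content and length removed, an alternative chosen after seeing the data, it was -0.69 and passed (edgeR adjusted p 0.0478). Ring1 had 88 to 176 counts per library.

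Rnf2 (ENSMUSG00000026484, chromosome 1, 151458004 to 151500955), which encodes the main RING ligase of most cells, had 48.1, 55.9 and 58.3 CPM in CD4 1, 2 and 3. The lymphomas ran from 40.9 CPM in lymphoma 53 to 79.8 CPM in lymphoma 56, with a median of 56.5 CPM, and spanned the CD4 range on both sides. The log2 fold change was 0.10 (SE 0.201, edgeR adjusted p 0.709), and its interval of 2 SE on either side ran from -0.30 to 0.50. The rise of Bmi1, at 1.05, lay outside that interval, and its own interval of 2 SE on either side ran from 0.56 to 1.55. A difference between Bmi1 and Rnf2 was not tested. Rnf2 overlaps Trmt1l by 158 exonic bases (3.8% of its own) on the opposite strand. The log2 ratio of Rnf2 to Ring1 was 2.03 ± 0.39 (SD, n = 3) in CD4 and 2.53 ± 0.21 (SD, n = 6) in lymphoma, with overlap (exact permutation p = 0.0952, 0.143 adjusted over the 6 ratios).

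The spread among the 6 lymphomas was then compared with that of other genes. The SD of log2 CPM among lymphomas was 0.20 for Ring1, 0.26 for Cbx8, 0.29 for Cbx2, 0.31 for Rnf2, 0.33 for Bmi1, 0.35 for Cbx6, 0.39 for Pcgf6, 0.40 for Cbx7 and 0.57 for Pcgf2. The median over all tested genes was 0.47, and 8 of the 9 genes lay below it. Ring1 stood at the 11.3th percentile of all tested genes and Pcgf2 at the 59.4th. The percentiles were not corrected for expression level and are a description.

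The same lymphomas were not high for every gene. Lymphoma 53, which stood apart over all genes, was the highest of the 6 for Cbx6, Cbx7 and Pcgf6 and the lowest for Bmi1, Ring1 and Rnf2. Lymphoma 72 was the highest for Cbx2 and Cbx8 and the lowest for Cbx7 and Pcgf6. Averaged over the 9 genes, the absolute deviation from the lymphoma mean was 0.396 log2 units in lymphoma 53, 0.331 in lymphoma 72 and 0.103 in lymphoma 34, which lay closest to the mean. Highest over lowest lymphoma was 1.38-fold for Ring1, 2.02-fold for Cbx6, 2.19-fold for Cbx7, 2.26-fold for Pcgf6 and 2.94-fold for Pcgf2. A single lymphoma made much of the SD for some genes: it was 0.14 for Cbx2 without lymphoma 72, 0.20 for Cbx6 and 0.23 for Cbx7 without lymphoma 53, 0.25 for Pcgf6 without lymphoma 72, and 0.38 for Pcgf2 without lymphoma 86. The calls of Cbx2, Cbx6, Cbx7, Bmi1 and Pcgf6 held in each of the fits that left out 1 library.

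**Figure D4:**
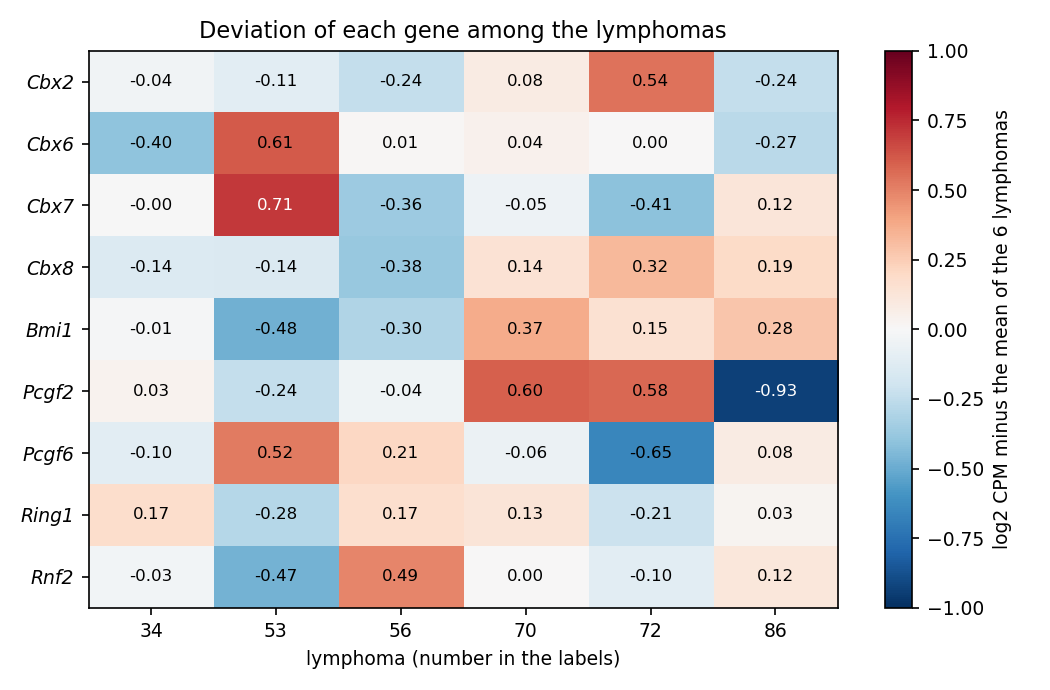
Deviation of each gene (rows) in each lymphoma (columns) from the mean of the 6 lymphomas, in log2 CPM, with red for higher and blue for lower and the value printed in each cell. Lymphoma 53 is 0.71 above the mean for Cbx7 and 0.48 below it for Bmi1, and the largest deviation is -0.93 for Pcgf2 in lymphoma 86.

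The genes most alike in pattern over the 9 libraries were listed by Pearson's r of log2 CPM among 9416 tested genes with an average of at least 3 log2 CPM. The 9 points share the difference between the groups, and r is given as a description. For Cbx2 the 3 highest were Cdca2 (0.990), Litaf (0.988) and Catsperd (0.987), and 555 genes exceeded 0.9. For Cbx6 they were Neu1, Tmem106c and Skp2 (0.985 to 0.990, with 967 genes over 0.9), and for Bmi1 they were Fbxo45, Dhrs4 and Polr2b (0.974 to 0.994, with 246). Cbx7 was most like Arhgap17 (0.993), Arl4c (0.992) and Pld4 (0.991), with 664 genes over 0.9, and Pld4 is known from plasmacytoid dendritic and B cells. Pcgf6 was most like Gm16286, Txnrd2 and Aasdhppt (0.978 to 0.981, with 534), and Pcgf2 like Tvp23b, H2afv and Atp6ap2 (0.936 to 0.969, with 19). The genes that did not pass the test had few close matches: for Ring1 they were Zfp386, Cep250 and Gm37850 (0.898 to 0.950, with 2 genes over 0.9), for Rnf2 they were Ccs, Khdrbs1 and Tfpi (0.896 to 0.915, with 2), and for Cbx8 they were Rnf170, Ap1g2 and Zfp275 (0.876 to 0.897, with 0).

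The partners of these proteins in PRC1 were described from a list of 23 other subunit genes, of which 22 were tested and Scml2 was not. Of the 22, 4 were higher, 5 were lower and 13 did not pass, so 40.9% were called beside 46.6% of all tested genes. The median log2 fold change was 0.02. Among partners of PCGF6, E2f6, a repressor that lends the complex DNA binding, rose by 1.63 (SE 0.347, edgeR adjusted p 0.00232). L3mbtl2, a reader of the same complex, rose by 0.77 (SE 0.232, edgeR adjusted p 0.0170), a call lost without CD4 1 (0.0670) or CD4 3 (0.0650). Mga, its scaffold, and Max, the partner that it shares with MYCN, were at 0.16 and -0.02 (edgeR adjusted p 0.462 and 0.933). Mga was at 0.97 (edgeR adjusted p 0.000315) with GC and length trends removed, and Max turned positive in 5 of 20 alternatives. Yaf2, which can replace RYBP in variant complexes, rose by 0.58 (SE 0.201, edgeR adjusted p 0.0333), a call lost in 8 of 20 alternatives, among them leaving out lymphoma 72, CD4 1 or CD4 2 (0.0562, 0.0914 and 0.129). Bcor, of the PCGF1 complex, rose by 0.74 (SE 0.212, edgeR adjusted p 0.0134), and its call was lost without CD4 2 (0.0658) and with both sets of lymphomas averaged, 34, 70 and 72 and also 56 and 86 (0.0677).

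The 5 lower genes were Phc3, Scmh1, Auts2, Fbrs and Fbrsl1. Phc3, a Polyhomeotic subunit that links canonical complexes into clusters, fell by 1.56 (SE 0.140, edgeR adjusted p 5.19e-06), or by 0.97 with GC and length trends removed. Scmh1, a Polyhomeotic partner, averaged 21.1 ± 2.34 CPM (SD, n = 3) in CD4 against 0.813 ± 0.893 CPM (SD, n = 6) in lymphoma, with 0 to 38 counts in the lymphomas. Its log2 fold change was -4.67 (edgeR adjusted p 0.000712) and -5.40 without lymphoma 34. Auts2, Fbrs and Fbrsl1, paralogous partners of PCGF3 and PCGF5, had log2 fold changes of -3.96, -1.33 and -0.77 (edgeR adjusted p 0.00134, 2.40e-05 and 0.00727). Auts2 had 1 to 19 counts in the lymphomas and changed by -4.56 without lymphoma 34, and the call of Fbrsl1 was lost without CD4 3 (edgeR adjusted p 0.0722).

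**Figure D5:**
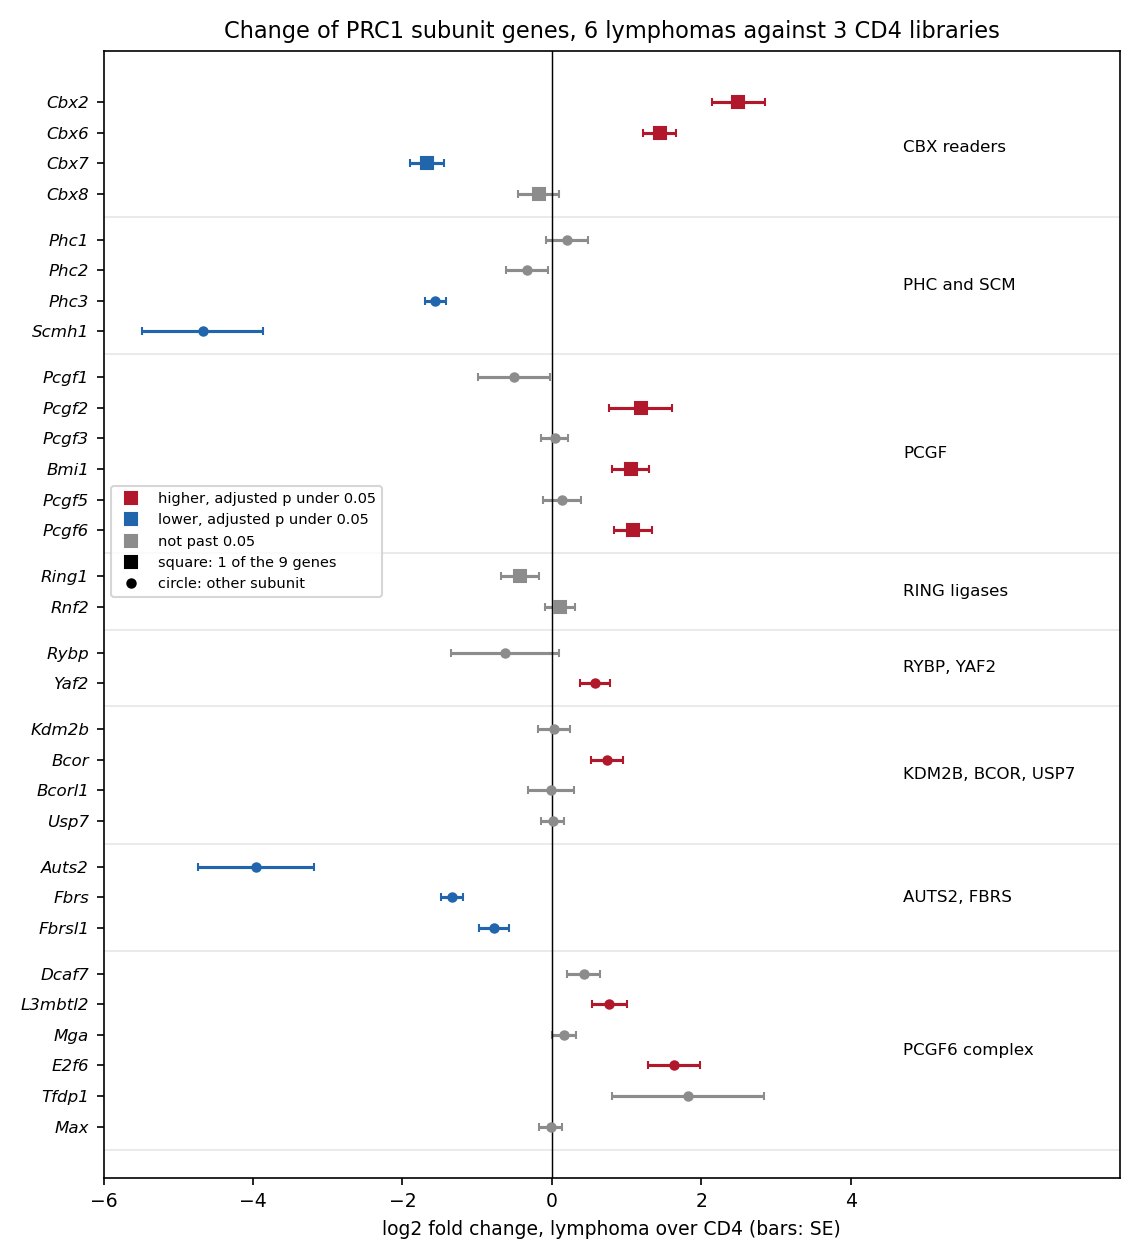
Log2 fold change of lymphoma over CD4 (horizontal axis, bars are SE) for the 9 genes (squares) and 22 other PRC1 subunit genes (circles), grouped by role, with red for higher, blue for lower and grey for not past an edgeR adjusted p of 0.05. Cbx2 at 2.49 lies farthest to the right among called genes, and Scmh1 at -4.67 and Auts2 at -3.96 farthest to the left.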

How the data were processed

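RNA 3′ ends were sequenced in 6 lymphoma and 3 CD4 libraries. The authors deposited 1 table of raw read counts per Ensembl gene and library. FastQC, HISAT2, SAMtools and HTSeq and the builds mm10 and GRCm38 are named, per the submitters' processing notes; versions, annotation and strand setting are not given in the sources used here. Rows for reads not counted in a gene were left out. They held 50.9 to 61.3% of reads per lymphoma and 64.95 to 72.2% per CD4 library. Reads aligned to several places are among them, so near-identical genes are uncertain. The number of unmatched columns was 0.

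Genes were filtered with filterByExpr (minimum count 10), scaled with TMM and tested with edgeR 4.0.16 in R 4.3.3 (glmQLFit, robust, and glmQLFTest, 9 libraries, no covariate). P-values were adjusted by Benjamini-Hochberg over 15401 genes, and 0.05 was the threshold. SE is the absolute log2 fold change over the square root of F, with a prior count of 2 for log2 CPM. Ratios used a pseudocount of 0.5 and scipy 1.17.1. On simulated data the fit missed most of the smaller changes. Far fewer genes were changed there than were called here, which makes the adjustment stricter, so that rate does not carry over to these data. A gene that did not pass is still not shown to be unchanged. Positions come from GENCODE M21 (GRCm38), where 45143 of 46078 IDs matched. Alternatives were other scalings, filters and tools (DESeq2 1.42.0, limma 3.58.1 voom), leaving out 1 library, and averaging lymphomas 34, 70 and 72, whose most used T cell receptor beta V segment was the same, also with 56 and 86 averaged. Lymphomas 56 and 86 had 0 counts in such segments. The genes and lists were chosen with earlier results of these data known. The text names the 9 genes, genes of the lists whose role is described, and the 3 genes most like each of the 9. Some genes are not reported here.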

Additional observations from a re-analysis of the deposited data

Results flagged for a closer look

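Among 15 results examined over the 6 lymphomas (the CPM of the 9 genes and the 6 paralogue ratios), 3 had 1 lymphoma far from the rest by Dixon's test at its 95% level, which sets the gap to the nearest lymphoma against the range of all 6. Chance flags about 1 in 20, or 0.75 of 15. Cbx2 stood at 45.2 CPM in lymphoma 72, where the others had 26.1 to 32.8 CPM. Cbx6 stood at 334 CPM in lymphoma 53, where the others had 165 to 225 CPM. The log2 ratio of Pcgf2 to Bmi1 was -3.80 in lymphoma 86, where the others had -2.52 to -2.14.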

How the results depend on the processing

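Over 20 alternatives, the calls and directions of Cbx2 (2.16 to 2.73), Cbx6 (1.29 to 1.59), Cbx7 (-1.85 to -1.49), Bmi1 (0.90 to 1.33) and Pcgf6 (0.96 to 1.23) held, in log2 fold change. The call of Pcgf2 was lost with upper quartile scaling (1.10), limma voom (1.18), a threshold of 0.01 (1.19), lymphomas 34, 70 and 72 averaged (1.01), 56 and 86 averaged as well (1.09), and GC and length trends removed (0.92), the alternative chosen after seeing the data. That correction also brought Ring1 (-0.69) past the threshold. Leaving out 1 library gave 1.03 to 1.598 for Pcgf2, -0.41 to 0.0104 for Cbx8, and -0.32 to 0.25 for the ratio of Pcgf6 to Bmi1. It gave SDs among lymphomas of 0.14 to 0.33 for Cbx2, 0.20 to 0.39 for Cbx6, 0.23 to 0.45 for Cbx7, 0.38 to 0.64 for Pcgf2 and 0.25 to 0.43 for Pcgf6. The change of Max, -0.02, was 0.0058 with no filter, 0.033 with 34, 70 and 72 averaged, and -0.0948 to 0.1713 without 1 library. The ratios without 1 CD4 library have no test, since 6 against 2 cannot go below an exact p of 0.0714. The causes were not tested. No paired analysis was possible because the groups share no replicate numbers.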

Other observations

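The chromobox genes that read the heterochromatin mark rather than the Polycomb mark, Cbx1, Cbx3 and Cbx5, encode the HP1 proteins, and 3 of 3 were higher in lymphoma, where 24.7% of all tested genes were. Cbx5 rose by 2.24 (SE 0.189, edgeR adjusted p 3.41e-06), Cbx3 by 1.55 (SE 0.315, edgeR adjusted p 0.00178) and Cbx1 by 1.05 (SE 0.192, edgeR adjusted p 0.000894) on the log2 scale. Reads aligned to several places were not counted, so values of such genes with near-identical copies are uncertain. Of 7 genes of the deubiquitinase complex that removes the PRC1 mark from histone H2A, 2 were higher and 3 lower, where 24.7% and 21.9% of all tested genes were. The 5 called genes became 2 without CD4 2 or CD4 3, and 1 with GC and length trends removed. They also became 2 at a threshold of 0.01 and with lymphomas 34, 70 and 72 and also 56 and 86 averaged. Foxk2, a DNA-binding partner, rose by 1.28 (SE 0.228, edgeR adjusted p 0.000722) and Bap1, the enzyme, by 0.62 (SE 0.205, edgeR adjusted p 0.0264), while Asxl2, Mbd5 and Foxk1 stood at -1.03, -0.98 and -0.46 (edgeR adjusted p 0.000730, 0.0241 and 0.0265). The call of Asxl2 was lost with GC and length trends removed (-0.24, edgeR adjusted p 0.499), those of Bap1 and Mbd5 in 5 of 20 alternatives each, among them leaving out CD4 2 or CD4 3, and that of Foxk1 in 11.

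Cdkn2a, the textbook target of CBX7 and BMI1, stood at 0.850 ± 0.823 CPM (SD, n = 3) in CD4, from 4 to 15 counts, and at 12.4 ± 4.27 CPM (SD, n = 6) in lymphoma. Its log2 fold change was 3.89 (SE 0.608, edgeR adjusted p 0.000294), and 5.02 without CD4 2. Cdkn2b, the other target listed, had 0 to 13 counts per lymphoma and 0 to 15 per CD4 library and was not tested.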
